A study of Rattus norvegicus with 15 samples.

Results

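The polyamine metabolism genes are 8 genes chosen by symbol for their place in the synthesis, breakdown or feedback control of polyamines, a group of small molecules linked to muscle atrophy. They are Odc1, Amd1, Srm and Sms for synthesis, Sat1, Smox and Paox for breakdown, and Oaz1 for feedback control. Each symbol matched a single gene, giving 8 of the 37991 genes in the deposited table, and all 8 passed the filter on low counts that kept 17201 genes for testing. The rule for choosing them used symbols only, but they were chosen with earlier results of these data known.

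The libraries were made from total RNA of the multifidus, a deep paraspinal muscle, of wild-type male Sprague Dawley rats aged 12 weeks. There were 2 libraries from uninjured controls, and 2 from operated rats that received no treatment (surgery group). The operation was a hemilaminectomy with ligation of the left L5 spinal nerve, and all groups except control had surgery. The pMT group (4 libraries) received mitochondria isolated from human plasma (pMT) into the left paraspinal muscle, 25 μg in 100 μL of SHE buffer at each site and 50 μg per rat. The VitD group (3 libraries) received vitamin D as cholecalciferol, 150 μg at each site and 300 μg per rat, and the pMT/VitD group (4 libraries) received both agents at these doses. In the timeline given for pMT, injection was on day 14 and tissue was collected on day 28. The days for the groups with VitD are not given in the sources used here. No group injected with buffer alone was analysed here, and the transplanted mitochondria came from another species. The labels do not say whether each library came from a separate rat, so the p-values measure the spread between these libraries, which may be partly technical.

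Polyamines (putrescine, spermidine and spermine) are small positively charged molecules that bind nucleic acids and are needed for growth and protein synthesis. Odc1, ornithine decarboxylase, makes putrescine from ornithine, and Amd1, S-adenosylmethionine decarboxylase, makes the aminopropyl donor. Srm, spermidine synthase, and Sms, spermine synthase, add aminopropyl groups in turn. Sat1 acetylates spermidine and spermine, Paox oxidises the acetylated forms, and Smox oxidises spermine directly back to spermidine. Oaz1, antizyme, is made when polyamines are plentiful and targets Odc1 protein for degradation. Much of this control acts on translation and protein stability, which transcript levels do not show. In skeletal muscle, Smox and Amd1 are known as genes whose expression changes in atrophy and with muscle mass.

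Promoter sequences are shown for Srm and Smox, the members that differed between groups, and for Oaz1, the other member with an E-box. Each is the 250 bases before the RefSeq gene start in the GRCr8 assembly, on the strand of the gene, and all 8 members had an entry. The counts themselves were made on the older rn6 assembly, so these coordinates serve only to locate the sequence. Capitals mark motifs found on either strand, namely the E-box, the TATA box, the CCAAT box and the GC box.
Srm, chr5:164308752-164309001, plus strand: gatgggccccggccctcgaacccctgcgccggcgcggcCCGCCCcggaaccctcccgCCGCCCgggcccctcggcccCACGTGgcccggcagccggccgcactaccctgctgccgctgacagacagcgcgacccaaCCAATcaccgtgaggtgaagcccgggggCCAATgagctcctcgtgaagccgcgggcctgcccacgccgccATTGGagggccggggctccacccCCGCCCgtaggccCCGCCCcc
Oaz1, chr7:9536991-9537240, minus strand: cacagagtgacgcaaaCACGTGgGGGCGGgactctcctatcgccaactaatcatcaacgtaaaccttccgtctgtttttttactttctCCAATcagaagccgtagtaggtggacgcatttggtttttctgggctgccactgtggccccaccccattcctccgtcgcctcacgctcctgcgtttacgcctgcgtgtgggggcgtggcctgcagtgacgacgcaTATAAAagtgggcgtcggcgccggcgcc
Smox, chr3:139204351-139204600, plus strand: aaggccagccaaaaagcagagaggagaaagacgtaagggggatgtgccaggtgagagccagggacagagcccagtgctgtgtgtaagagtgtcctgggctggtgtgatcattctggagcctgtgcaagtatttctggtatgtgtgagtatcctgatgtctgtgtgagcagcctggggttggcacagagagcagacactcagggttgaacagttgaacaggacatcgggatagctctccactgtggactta

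The Srm window held 1 E-box, 173 bases before the start, with 3 CCAAT boxes at 114, 86 and 44 bases and 4 GC boxes. Oaz1 held an E-box at 234 bases, a CCAAT box at 162 and a TATA box at 28. None of the 4 motifs was found in the Smox window. The E-box letters CACGTG were in 5.59% of all 33469 rat promoters of the same length and in 2 of the 8 members (Srm and Oaz1). The TATA box letters TATAAA were in 12.9% of promoters and in 2 members (Amd1 and Oaz1). The CCAAT box letters were in 34% of promoters and in 2 members (Srm and Oaz1). The GC box letters GGGCGG were in 30.5% of promoters and in 7 members, all except Smox. The E-box and the neighbouring GC box of Oaz1 were 1 base apart, and 0 pairs of neighbouring motifs overlapped in the Srm or Oaz1 window. These matches describe letters in a window and were not tested as binding sites.

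Total counts per library ranged from 52342134 to 73557878, and the members had between 258 counts (Smox) and 36044 counts (Oaz1) in a library. The muscle identity of the tissue was checked on 10 muscle markers, led by Acta1, whose summed level was 93825 to 134745 TPM (transcripts scaled to transcript length and library total) in the 15 libraries. Among the operated groups, the summed level of 10 denervation markers was 175.8 to 178.1 TPM in surgery and 133.9 to 287.0 in VitD, against 47.1 to 49.3 in control, 56.5 to 68.7 in pMT and 44.4 to 61.8 in pMT/VitD. A pair of libraries stood apart from their groups. The macrophage marker sum was 198.9 TPM in pMT replicate 4, against 331.6 to 381.7 in the other pMT libraries, and 334.9 in pMT/VitD replicate 4, where the rest of pMT/VitD had 189.1 to 228.8, so that each lay nearer to the other group. They stayed in their labelled groups, and some results of the members are also given without both. Differences of other genes and counts of markers are given with all 15 libraries only. VitD replicate 1 had the highest denervation sum.

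By level per transcript length, Oaz1 was the most abundant member, with a mean of 579.8 TPM over the 15 libraries. Sat1 followed with 33.5 TPM, Odc1 with 25.0, Srm with 21.4, Sms with 21.2, Amd1 with 16.0, Paox with 6.26 and Smox with 4.22. The ranges of neighbours in this order overlapped from Sat1 to Amd1, and also between Paox and Smox, while Oaz1 stood clear of the rest. Levels of 1 gene are compared between libraries below as CPM, counts scaled to a library size that was adjusted by TMM factors, which even out composition between libraries. On this scale Srm had the widest range, with its highest library 2.44-fold above its lowest, and Paox the narrowest, at 1.45-fold.

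**Figure D1:**
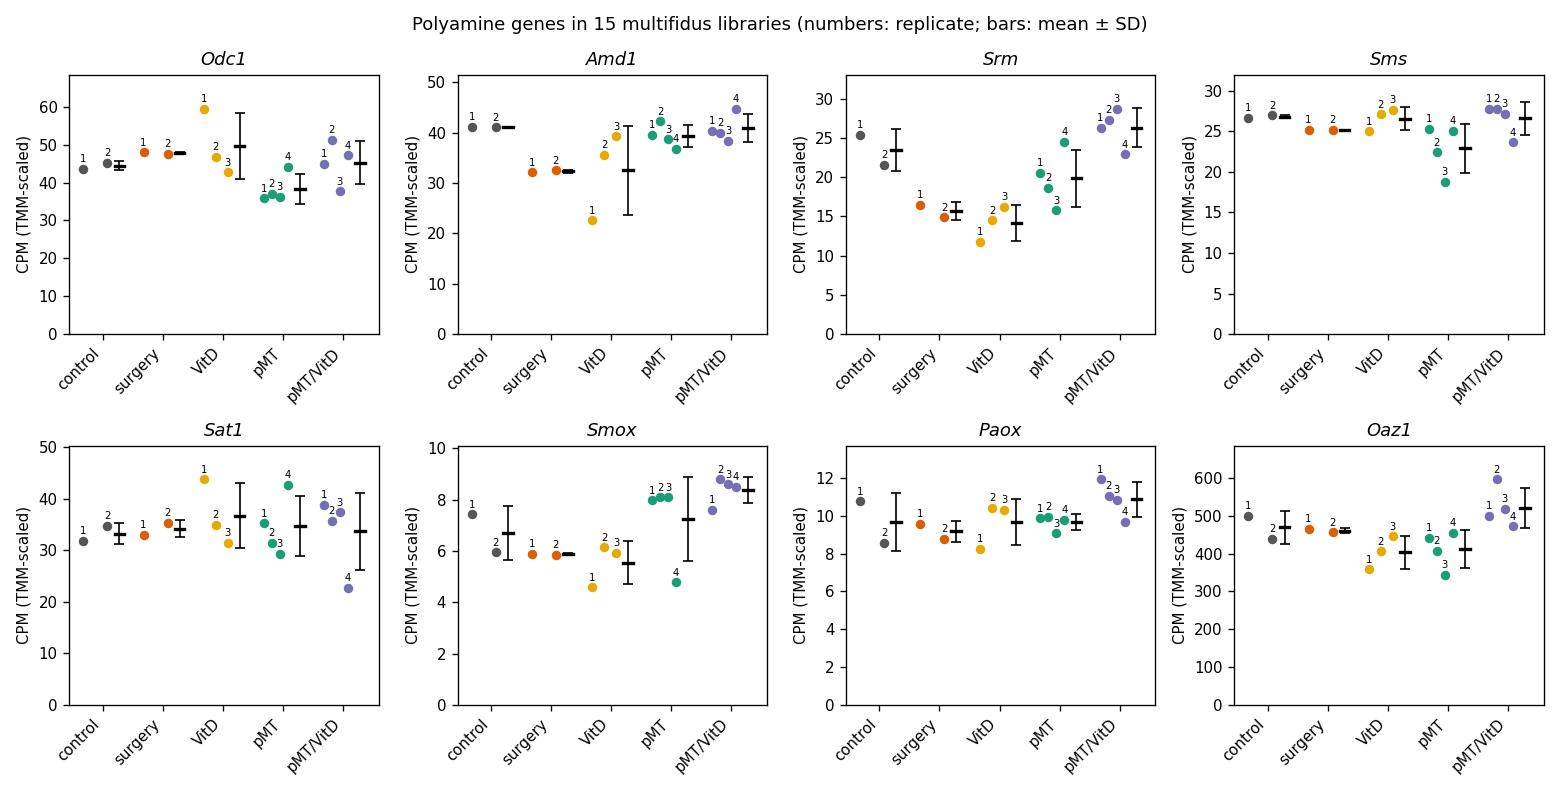
CPM of the 8 polyamine genes in each of the 15 libraries (vertical axes start at 0), with the replicate number above each point and the group mean ± SD beside it. Srm lies at 11.8 to 16.5 CPM in all surgery and VitD libraries and at 21.5 to 28.7 in all control and pMT/VitD libraries, with pMT spread from 15.8 to 24.5.

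The first question was whether any member differed among the 5 groups. Srm did, and it was the only one of the 8 members called at an adjusted p under 0.05 (edgeR's quasi-likelihood F-test, adjusted p = 0.00678, Benjamini-Hochberg over all genes tested). In this test 11.8% of all genes were called, so 1 member of 8 is close to the share of all genes. The adjusted p-values of the others were 0.139 for Smox, 0.218 for Oaz1, 0.269 for Odc1, 0.294 for Amd1, 0.439 for Sms, 0.600 for Paox and 0.973 for Sat1. Srm was called in all 25 alternative settings, with adjusted p up to 0.0391. Another 2 members passed with DESeq2 (Oaz1 and Smox), which called 3708 of 17194 genes. Smox passed when both replicates numbered 4 were left out.

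Among the synthesis genes, Srm was lower in the operated muscle without pMT than in uninjured muscle and in muscle given both agents. Its CPM was 25.4 and 21.5 in control, and 16.5 and 14.9 in surgery. It was 11.8, 14.5 and 16.2 with VitD alone. The pMT/VitD libraries had 26.3, 27.3, 28.7 and 22.9. Every surgery and VitD library was therefore below every control and pMT/VitD library. Of all genes tested, 34.4% had both surgery libraries below control, 27.1% had all VitD libraries below control, 16.6% had all pMT/VitD libraries above surgery and 13% had them above VitD. The pMT libraries, at 20.6, 18.6, 15.8 and 24.5, covered the space between and overlapped both the surgery and the pMT/VitD groups.

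Group means were 23.5 ± 2.69 CPM in control (SD, n = 2), 15.7 ± 1.16 in surgery (n = 2), 14.2 ± 2.25 in VitD (n = 3), 19.9 ± 3.65 in pMT (n = 4) and 26.3 ± 2.48 in pMT/VitD (n = 4). Srm was 1.86-fold higher in pMT/VitD than in VitD (log2 fold change 0.89 ± 0.15 SE, adjusted p = 0.00141, edgeR). It was 1.68-fold higher in pMT/VitD than in surgery (0.75 ± 0.17, adjusted p = 0.0202). It was 1.66-fold lower in VitD than in control (−0.73 ± 0.17, adjusted p = 0.0219). The difference from VitD to pMT/VitD was called in all 27 alternatives, between 0.55 and 1.0 on the log2 scale. The other calls rested on few libraries. Without surgery replicate 1 or 2 the pMT/VitD against surgery difference was 0.82 or 0.67, with adjusted p of 0.138 or 0.228, and the VitD against control call was lost without control replicate 1 or 2 (−0.61 and −0.84, adjusted p = 0.212 and 0.0940), without VitD replicate 1 or 2 (−0.61 and −0.75, adjusted p = 0.0805 and 0.0528) and with only the 2 groups compared (−0.71, adjusted p = 0.0797). Over all 27 alternatives this difference lay between −0.84 and −0.45.

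Surgery alone did not give a call for Srm. Both surgery libraries were below both control libraries, by −0.58 ± 0.19 on the log2 scale, at an adjusted p of 0.134 in the fit to all libraries. With edgeR's exactTest on these 4 libraries the difference was −0.55 (adjusted p = 3.7e-06), a test that called 5923 genes. With pMT alone, Srm was 0.34 ± 0.17 above surgery (adjusted p = 0.385) and 0.49 ± 0.15 above VitD (adjusted p = 0.0579). Between pMT/VitD and pMT the difference was 0.41 ± 0.14 (adjusted p = 0.452). Without both replicates numbered 4 it was 0.59 (adjusted p = 0.00785).

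**Figure D2:**
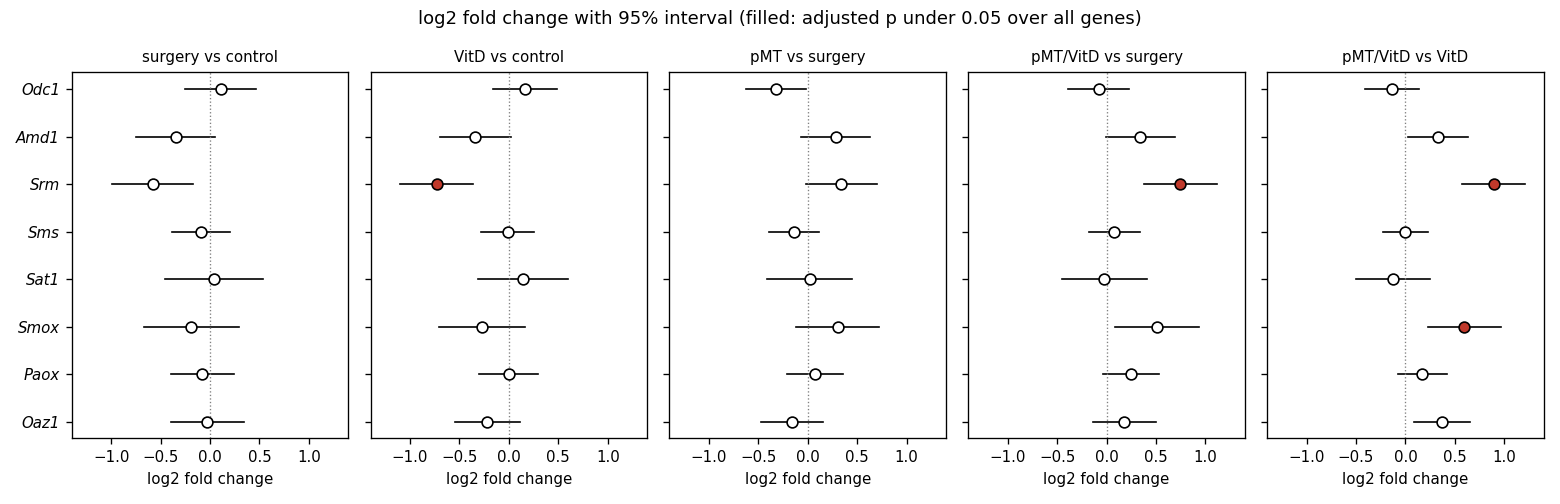
log2 fold change (points) with its 95% interval (lines) for the 8 members in 5 comparisons, from edgeR's quasi-likelihood fit to all libraries; filled points have an adjusted p under 0.05 over all genes tested. Srm is filled where VitD is set against control and where pMT/VitD is set against surgery or VitD. Smox is filled for pMT/VitD against VitD, and every other point is open.

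Srm has a near-identical copy in the annotation, LOC100912604, named as spermidine synthase-like. In each library the copy held between 97.6% and 101.5% of the counts given to Srm, with 998 to 1608 counts against 996 to 1607. How reads that align to several genes were shared out is not stated, so the level of Srm is uncertain and the 2 entries cannot be told apart. The copy was not among the genes of the GRCr8 table, which holds Srm. With both entries summed, an alternative added after the data were seen, the difference between pMT/VitD and VitD was 0.88 (adjusted p = 0.00153). The sum also passed between pMT/VitD and surgery (0.74, adjusted p = 0.0209) and between VitD and control (−0.72, adjusted p = 0.0228).

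**Figure D3:**
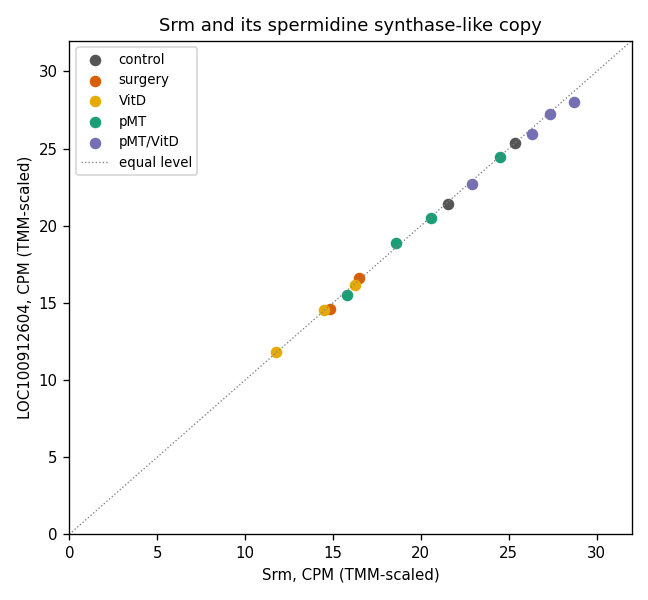
CPM of Srm (horizontal axis) against CPM of its spermidine synthase-like copy (vertical axis) in the 15 libraries, coloured by group, with a dotted line of equal level. All points lie along the line, with surgery and VitD at the lower end and pMT/VitD and control at the upper end.

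Over the 15 libraries, the genes whose pattern was most like that of Srm among the 7803 compared were this copy (Pearson r = 0.999), Tmem147 (r = 0.989) and LOC108351683 (r = 0.986), the last a pseudogene entry. The correlations are across log2 CPM, and the points share library depth and composition. Tmem147, a membrane protein of the endoplasmic reticulum, had 77.1 ± 7.45 CPM in control, 56.2 ± 4.34 in surgery, 49.8 ± 7.70 in VitD, 66.7 ± 11.3 in pMT and 85.7 ± 9.61 in pMT/VitD.

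Odc1, which supplies putrescine, was not called in any comparison by edgeR's quasi-likelihood fit to all libraries, though it was in some alternatives. It passed in 5 of 27 between pMT and VitD, with limma voom between pMT and surgery and between pMT/VitD and pMT, and with library size scaling between pMT/VitD and VitD. Its CPM was 43.6 and 45.3 in control and 48.0 and 47.7 in surgery. The pMT libraries had 35.9, 37.0, 36.3 and 44.2, and all 4 were below both surgery libraries. Across all genes, 17.2% had every pMT library below both surgery libraries. The difference was −0.32 ± 0.14 on the log2 scale (adjusted p = 0.324). VitD had 59.5, 46.9 and 42.7, of which replicate 1 was the highest of the 15 libraries, and pMT/VitD had 44.9, 51.3, 37.7 and 47.2. Between pMT and VitD the difference was −0.38 ± 0.13 (adjusted p = 0.0854), and it was −0.47 (adjusted p = 0.0334) without both replicates numbered 4.

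Amd1, which makes the aminopropyl donor, was at the same level in both control libraries, 41.1 and 41.0 CPM, and at 32.1 and 32.5 in surgery. The surgery libraries were below control by −0.35 ± 0.19 on the log2 scale (adjusted p = 0.366), and 34.4% of all genes had both surgery libraries below control. This difference of Amd1 was called in 3 of 27 alternatives, among them edgeR's exactTest (adjusted p = 0.000121). The pMT libraries had 39.5, 42.2, 38.6 and 36.8 and the pMT/VitD libraries 40.3, 40.0, 38.3 and 44.7, so all 8 were above both surgery libraries. Across all genes this was so for 13.2% with pMT and 16.6% with pMT/VitD. The separation was seen on TMM-scaled CPM and not in TPM, where surgery had 15.6 and 15.8 while pMT/VitD replicates 1 to 3 had 13.1, 13.6 and 13.3 and pMT replicate 4 had 11.8. For pMT/VitD against surgery the difference was 0.34 ± 0.16 (adjusted p = 0.214), and 0.018 with library size scaling (adjusted p = 0.958). VitD had 22.6, 35.6 and 39.2, and replicate 1 was the lowest of all libraries. Without that library, the pMT/VitD against surgery difference for Amd1 was the same size and had an adjusted p of 0.0278.

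Sms, which completes spermine synthesis, varied little. It had 26.7 and 27.0 CPM in control, 25.2 in both surgery libraries, 25.0 to 27.6 in VitD, 18.8 to 25.3 in pMT and 23.6 to 27.8 in pMT/VitD. The pMT/VitD and pMT groups differed by 0.22 ± 0.10 on the log2 scale (adjusted p = 0.489), and by 0.32 (adjusted p = 0.0398) without both replicates numbered 4. Of the 4 synthesis genes, only Srm thus gave a call in the fit to all libraries.

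Among the breakdown genes, Smox, spermine oxidase, was higher in pMT/VitD than in VitD. Its CPM was 7.61, 8.79, 8.60 and 8.50 in pMT/VitD, and 4.57, 6.14 and 5.92 in VitD. All 4 libraries with both agents were above all 3 with VitD alone, as were 13% of all genes. The means were 8.37 ± 0.525 (SD, n = 4) and 5.55 ± 0.848 (n = 3), a 1.51-fold difference (0.60 ± 0.17 on the log2 scale, adjusted p = 0.0254). In TPM the groups overlapped, with 3.58, 4.26, 4.27 and 5.51 in pMT/VitD and 3.29, 4.29 and 3.97 in VitD. The call was lost without pMT/VitD replicate 2 (0.57, adjusted p = 0.0584), without VitD replicate 1 (0.47, adjusted p = 0.123) and with library size scaling in place of TMM (0.26, adjusted p = 0.375).

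In the other groups Smox was 7.43 and 5.95 CPM in control and 5.89 and 5.85 in surgery. The pMT libraries had 7.97, 8.09 and 8.09 in replicates 1 to 3 and 4.77 in replicate 4. Without replicate 4, pMT thus lay with pMT/VitD, and with it the pMT group spanned almost the whole range. The pMT against VitD difference was 0.39 ± 0.17 (adjusted p = 0.194) with all libraries and 0.53 (adjusted p = 0.0178) without both replicates numbered 4. All 4 pMT/VitD libraries were above both surgery libraries, as were 16.6% of all genes, and that difference was 0.51 ± 0.20 (adjusted p = 0.128) with all libraries and 0.50 (adjusted p = 0.0266) without both. In TPM the surgery libraries, at 4.02 and 4.07, were above pMT/VitD replicate 1, at 3.58. Counts of Smox were 258 to 632 per library, the lowest of the 8 members.

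Sat1, the acetyltransferase that starts polyamine export and breakdown, gave no call in the fit to all libraries. With library size scaling it was lower in pMT/VitD than in VitD (−0.50, adjusted p = 0.0230). It ranged from 31.8 to 34.7 CPM in control, 33.0 to 35.3 in surgery, 31.5 to 43.8 in VitD, 29.3 to 42.7 in pMT and 22.7 to 38.9 in pMT/VitD. The lowest value was in pMT/VitD replicate 4 and the highest in VitD replicate 1. Paox, the oxidase of acetylated polyamines, had the narrowest range, with 8.58 and 10.8 CPM in control, 8.78 and 9.58 in surgery, 8.25 to 10.4 in VitD, 9.08 to 9.96 in pMT and 9.67 to 11.9 in pMT/VitD. The pMT/VitD libraries were all above both surgery libraries, as were 16.6% of all genes, with the nearest values at 9.67 and 9.58. The groups differed by 0.24 ± 0.13 on the log2 scale (adjusted p = 0.269), a direction that turned with library size scaling (−0.087).

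Oaz1, the antizyme that restrains Odc1, had its highest mean CPM with both agents, an order that depended on the scale. In TPM its mean was highest in surgery, at 679.9 against 569.0 in pMT/VitD, and the difference between these groups was 0.18 on the log2 scale in the fit to all libraries and −0.15 with library size scaling. Its CPM was 500.4, 596.5, 518.2 and 472.2 in pMT/VitD, 441.4, 407.2, 344.7 and 455.5 in pMT, and 359.0, 406.0 and 446.2 in VitD. All pMT/VitD libraries were above all pMT and all VitD libraries, which was so for 2.46% of genes against pMT and 13% against VitD. The difference from VitD was 0.37 ± 0.13 on the log2 scale (adjusted p = 0.0564) and from pMT 0.34 ± 0.12 (adjusted p = 0.452), so neither passed in the fit to all libraries. The difference from VitD passed in 8 of 27 alternatives. Without both replicates numbered 4 these differences were 0.41 (adjusted p = 0.0221) and 0.44 (adjusted p = 0.0251), and with library size scaling 0.03 and 0.16. Control had 500.4 and 439.0 CPM and surgery 465.8 and 456.8. Control overlapped pMT, while all 4 pMT libraries were below both surgery libraries, as were 17.2% of all genes.

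Across the 8 members, the number called between pairs of groups was small. In pMT/VitD against VitD 2 members were higher (Srm and Smox), where 21.9% of all genes were called and 9.66% were called higher. In pMT/VitD against surgery 1 was higher (Srm), with 7.44% of all genes called and 2.4% higher. In VitD against control 1 was lower (Srm), with 8.67% of all genes called and 3.2% lower. The median log2 fold change of the 8 members was 0.25 in pMT/VitD against VitD, beside a median of 0 over all genes tested, and 0.21 in pMT/VitD against surgery, beside −0.002. These comparisons share libraries, so their calls for Srm are not separate evidence.

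No member was called by edgeR's quasi-likelihood F-test between surgery and control (1.55% of all genes called), between pMT and surgery (1.94%) or between pMT and VitD (8.1%). At an unadjusted p under 0.05 these had 1, 1 and 3 members, beside 17%, 14.3% and 23.2% of all genes. DESeq2 called 0, 0 and 1, edgeR's exactTest 2, 0 and 0, and limma voom with quality weights 2, 5 and 5. Of all genes, in the same order, DESeq2 called 1001, 747 and 2213 of 17194, and limma voom 4938, 6480 and 8540 of 17201. The exactTest called 5923 of 16316, 1180 of 16609 and 1389 of 16340. In VitD against surgery, pMT against control, pMT/VitD against control and pMT/VitD against pMT, 0% of all genes were called, with 0, 0, 0 and 3 members under an unadjusted p of 0.05, beside 0.808%, 3.07%, 2.88% and 10.1% of all genes. There DESeq2 and exactTest called 0 members and limma voom 0, 0, 0 and 4. Of all genes, limma voom called 405, 231, 1865 and 6617 of 17201 there. DESeq2 called 0, 0, 1 and 93 genes and exactTest 6, 12, 4 and 0.

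An interaction term asked whether the effect of pMT depended on VitD. For Srm the effects differed by 0.55 ± 0.22 on the log2 scale and for Oaz1 by 0.53 ± 0.20, each with an adjusted p of 0.899 by edgeR. In this test 0% of all genes were called, while 2 members and 5.16% of all genes had an unadjusted p under 0.05. DESeq2 called none either. Limma voom called 3 members (Odc1, Oaz1 and Srm), and 5417 of all 17201 genes. Without both replicates numbered 4 the adjusted p-values were 0.0574 for Srm and 0.0764 for Oaz1.

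**Figure D4:**
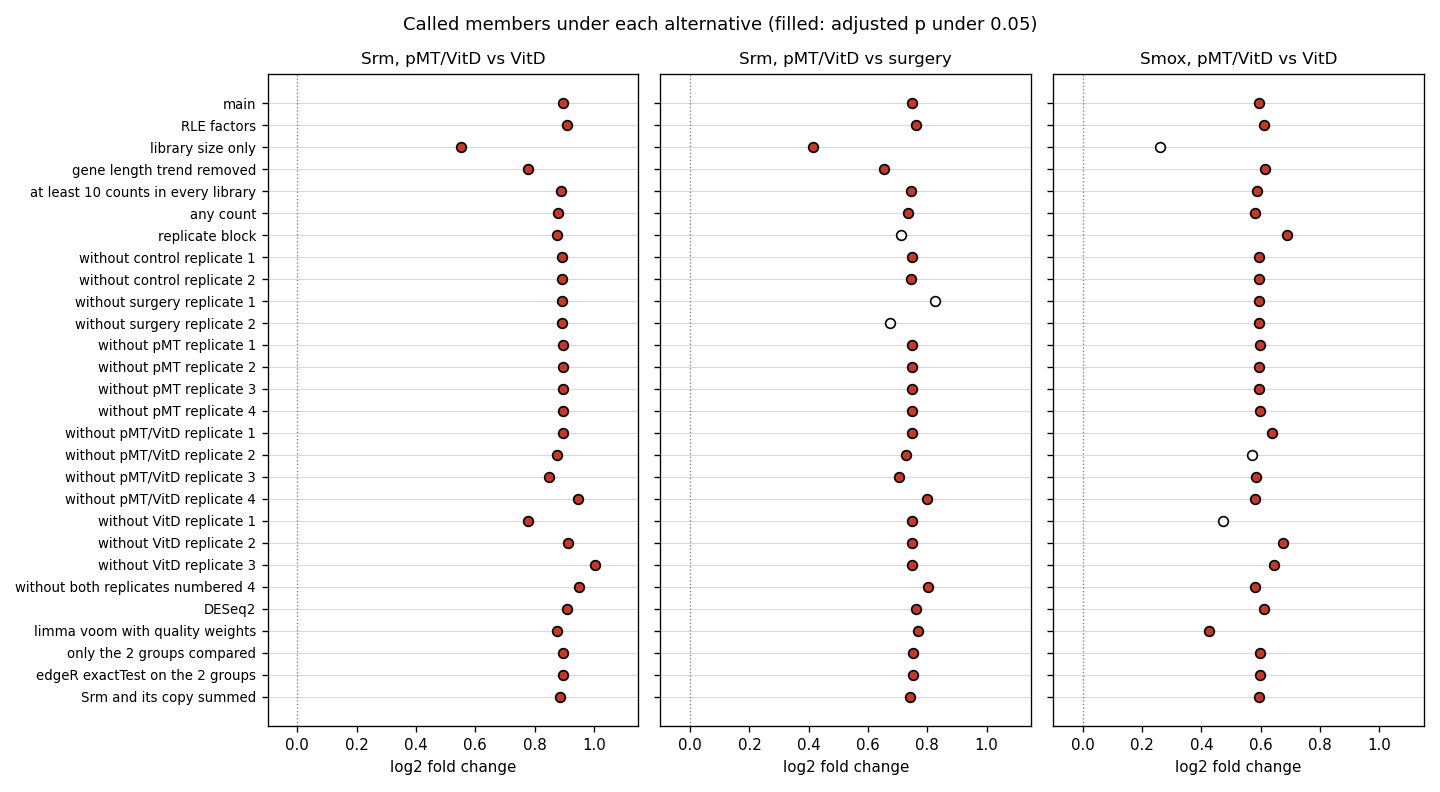
log2 fold change (horizontal axis) of Srm in pMT/VitD against VitD, of Srm in pMT/VitD against surgery and of Smox in pMT/VitD against VitD under the main fit and each alternative (vertical axis); filled points have an adjusted p under 0.05. Srm against VitD is filled throughout, between 0.55 and 1.0, while Srm against surgery opens without either surgery library and with a replicate block, and Smox opens in 3 settings.

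The balance between both arms was summarised as the summed TPM of Odc1, Amd1, Srm and Sms over that of Sat1, Smox and Paox. It was 2.10 and 2.25 in control, 1.74 and 1.85 in surgery, 1.48 to 1.92 in VitD, 1.74 to 1.9 in pMT and 1.87 to 2.58 in pMT/VitD. Both control libraries and most pMT/VitD libraries were thus above every surgery, pMT and VitD library, with pMT/VitD replicate 1, at 1.87, as the exception. The highest ratio was in pMT/VitD replicate 4, one of the libraries that stood apart, and the lowest in VitD replicate 1. The TPM of Oaz1 was 13.9 to 32.2 times that of Odc1, lowest in VitD replicate 1 and highest in pMT/VitD replicate 3. These ratios were not tested.

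The scale mattered for some members. TPM values carry no TMM adjustment, and on that scale Odc1 was at 30.6 ± 0.126 in surgery against 22.8 ± 0.789 in control (SD, n = 2 each) and Sat1 at 39.3 ± 1.9 against 28.8 ± 2.51. On the TMM-scaled CPM used for the tests, the same groups had 47.8 ± 0.258 and 44.4 ± 1.20 for Odc1 and 34.2 ± 1.64 and 33.3 ± 2.02 for Sat1. Srm was lower in surgery than in control on both scales, but by less in TPM. It had 19.4 ± 1.41 TPM in surgery and 23.4 ± 2.65 in control, against 15.7 ± 1.16 and 23.5 ± 2.69 CPM. Its TPM was 17.5 ± 2.50 in VitD, 21.6 ± 1.54 in pMT and 24.0 ± 1.85 in pMT/VitD. The TMM factors were 0.92 and 0.93 in control and 0.85 to 0.98 in pMT/VitD. They were 1.12 in both surgery libraries, 1.09 to 1.20 in VitD and 0.86 to 1.09 in pMT. With library size scaling alone, the median over all genes shifted by 0.25 on the log2 scale in surgery against control and by −0.34 in pMT/VitD against VitD, so the differences above are relative to the bulk of genes.

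The genes around the members were given from lists of ornithine and arginine supply (7 genes), other antizymes and antizyme inhibitors (4), the methionine cycle and salvage (10), hypusination of eIF5A, which uses spermidine as substrate (4), related acetyltransferases (2) and polyamine transport (7). Of these 34 genes 28 were tested. In pMT/VitD against VitD, 3 were higher and 5 lower, in VitD against control 2 were higher, in pMT/VitD against surgery 1 was lower and in pMT against VitD 2 were lower. In the same order, 21.9%, 8.67%, 7.44% and 8.1% of all genes were called. No gene of these lists was called in this fit between surgery and control or between pMT and surgery.

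Arg1, arginase, which releases ornithine and is also made by macrophages, was lower with both agents. Its level was 1.06 and 1.27 CPM in surgery, 0.729 to 1.71 in VitD, 0.567 and 0.678 in control, 0.413 to 0.657 in pMT and 0.260 to 0.525 in pMT/VitD. It differed by −1.54 ± 0.31 on the log2 scale between pMT/VitD and VitD (adjusted p = 0.00420), by −1.48 ± 0.34 between pMT/VitD and surgery (adjusted p = 0.0215) and by −1.21 ± 0.30 between pMT and VitD (adjusted p = 0.0259). Counts of Arg1 were only 14 to 146 per library. Gatm, which uses arginine for creatine synthesis, was higher in VitD than in control (0.73 ± 0.17, adjusted p = 0.0206), and lower in pMT/VitD than in VitD (−0.62 ± 0.14, adjusted p = 0.00714) and in pMT than in VitD (−0.60 ± 0.14, adjusted p = 0.0165).

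Eif5a2, the less abundant isoform of the translation factor that carries hypusine, was 3.84 to 4.83 CPM in VitD, 3.36 and 3.96 in surgery, 2.79 to 3.50 in pMT, 2.30 to 2.71 in pMT/VitD and 2.08 and 2.48 in control. It was higher in VitD than in control (0.90 ± 0.17, adjusted p = 0.00952) and lower in pMT/VitD than in VitD (−0.72 ± 0.14, adjusted p = 0.00299). The abundant isoform Eif5a, at a mean of 450.6 TPM, was not called in any comparison of the fit to all libraries. Nor were Oat, which makes or uses ornithine in mitochondria (53.5 TPM), Oaz2, another antizyme (148.9 TPM), Ahcy of the methionine cycle (43.2 TPM) and Sat2 (7.05 TPM). Slc3a2, an amino acid transporter subunit (50.3 TPM), was higher in pMT/VitD than in VitD (0.35 ± 0.11, adjusted p = 0.0439).

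**Figure D5:**
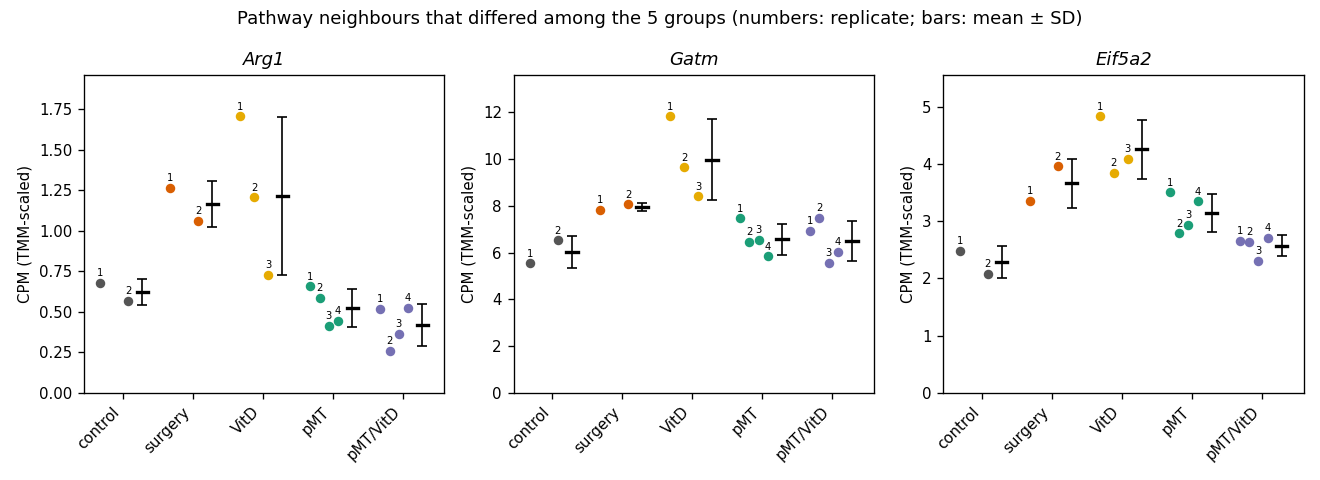
CPM of Arg1, Gatm and Eif5a2 in the 15 libraries (vertical axes start at 0), with the replicate number above each point and the group mean ± SD beside it. The VitD libraries hold the highest value of each gene, and for Eif5a2 all surgery and VitD libraries except surgery replicate 1 lie above every pMT library.

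Markers of denervation and of cell types moved in the comparisons in which Srm and Smox were called, and also in comparisons where no member was called. In pMT against VitD, 9 of 10 denervation, 8 of 11 macrophage and 6 of 8 fibroblast markers were lower. In pMT against surgery 7, 6 and 3 of these were lower, and in surgery against control 5, 3 and 1 were higher. Of 10 denervation markers 9 were lower in pMT/VitD than in VitD, 8 were lower in pMT/VitD than in surgery and 9 were higher in VitD than in control. All 11 macrophage markers were lower in pMT/VitD than in VitD and than in surgery, and 7 were higher in VitD than in control. Their summed level was 552.9 to 971.6 TPM in VitD and 677.9 to 685.7 in surgery, against 189.1 to 334.9 in pMT/VitD and 265.0 to 285.4 in control. Of 8 fibroblast markers 7 were lower in pMT/VitD than in VitD, 5 were lower in pMT/VitD than in surgery and 6 were higher in VitD than in control. In pMT/VitD against VitD, 3 of 10 muscle markers were higher, 1 of 6 endothelial markers was higher and 1 lower, and 1 marker each was lower among 6 adipocyte, 6 Schwann cell and 8 lymphocyte markers tested. The median log2 fold change was −1.20 for the lymphocyte list, as large as for the macrophage list (−1.19), and −0.14 for the Schwann cell list. The lymphocyte sum was 8.22 to 21.1 TPM in pMT/VitD and 30.7 to 42.9 in VitD, and the Schwann cell sum 65.7 to 101.3 and 120.7 to 134.3, without overlap. Cd4, at a mean of 19.9 TPM over all libraries, made up most of the lymphocyte sum. The other lymphocyte genes had means of 0.616 TPM (Jchain) or less, so the median of that list rests mostly on low counts. In bulk muscle, fewer cells of a type and less RNA per cell cannot be told apart, and the part of these markers in the results for Srm, Smox, Arg1, Gatm and Eif5a2 was not tested.

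Properties of the libraries also differed, only partly along these groups. The rank correlation across genes between gene length and a gene's log2 CPM relative to its mean was −0.39, −0.39, −0.17 and 0.15 in pMT/VitD replicates 1 to 4, 0.050 and 0.10 in surgery, and −0.032, 0.17 and 0.29 in VitD. Control, at 0.048 and 0.13, overlapped surgery. Mitochondrially encoded genes held 11.5% to 17.7% of counts in pMT/VitD, 14.5% and 15.6% in control, 10.7% and 11.2% in surgery and 10.9% to 13.03% in VitD. In pMT replicates 1 to 3 the correlations were 0.018, 0.36 and 0.45, and the mitochondrial shares 12.9%, 11.7% and 11.1%. In pMT replicate 4, which had the highest Srm of its group, these values were −0.32 and 22.6%. With the length trend removed, Srm differed by 0.78 between pMT/VitD and VitD (adjusted p = 0.000724), by 0.66 between pMT/VitD and surgery (adjusted p = 0.0113) and by −0.71 between VitD and control (adjusted p = 0.00756), and Smox by 0.61 between pMT/VitD and VitD (adjusted p = 0.0186). The part of the mitochondrial share in these results was not tested.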

How the data were processed

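Total RNA of rat multifidus was sequenced in paired-end mode on a NovaSeq instrument, giving 15 libraries. Per the labels and the submitters' processing notes, the authors used Trimmomatic 0.38 for trimming, HISAT2 2.1.0 for alignment to rn6 (RefSeq annotation), SAMtools 1.9 for sorting and StringTie 2.1.3b for quantification. The authors deposited whole-number counts per gene without normalization, TPM values scaled to the same total in each library, and FPKM values, which were not used here. Strand and the handling of reads that align to several genes are not given in the sources used here.

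Groups were taken from the sample labels. Counts were fitted in R 4.3.3 with edgeR 4.0.16 (glmQLFit with robust estimation, glmQLFTest, TMM factors, filterByExpr) over all 15 libraries and 17201 genes, with Benjamini-Hochberg adjustment over all of them and a threshold of 0.05. There were 10 pairs of groups, an interaction of pMT and VitD, and a test of any difference. TPM served to compare levels between genes. The authors' own test, edgeR's exactTest, and DESeq2 1.42.0, limma voom 3.58.1 with quality weights, RLE or library size scaling, removal of the gene length trend, other count filters, only the 2 groups compared, a replicate block, leaving out each replicate or both replicates numbered 4, and Srm summed with its copy were alternatives. The fit was tested on simulated data.

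The members and lists were chosen with earlier results of these data known. The text names all 8 members, at most the 3 called genes with the largest change per comparison and the most abundant gene of each other list, and the 3 genes most like a called member in log2 CPM (prior count 2, mean log2 CPM at least 3). Replicates of a group differed by more than sampling noise, so none were merged. The surgery pair was the most alike, with a chi-square per degree of freedom of 4.88, against 23.8 to 493 for other pairs of replicates. The labels do not say whether the surgery libraries came from separate rats. Promoters came from RefSeq on GRCr8.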

Additional observations from a re-analysis of the deposited data

Results flagged for a closer look

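In groups of 4 libraries, 3 of 16 sets of values held a library whose gap to the nearest other, divided by the whole range, was above Dixon's limit, where chance gives about 1 in 20, or 0.8 of 16. Odc1 in pMT replicate 4 was 44.2 CPM against 35.9 to 37.0 in the other pMT libraries (gap over range 0.863). Smox in the same library was 4.77 CPM against 7.97 to 8.09 (0.964). Sms in pMT/VitD replicate 4 was 23.6 CPM against 27.2 to 27.8 (0.843). By macrophage marker sum, each of these libraries lay nearer to the other group, as given above. The flagged Odc1 value lay within the pMT/VitD range (37.7 to 51.3 CPM) and the Sms value within the pMT range (18.8 to 25.3). The Smox value lay away from pMT/VitD, which had 7.61 to 8.79 CPM. The labels do not tell why, and no cause was tested.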

How the results depend on the processing

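Counts of members called moved in 38 of 320 recomputed values. For any difference among the 5 groups the count, 1 as reported, was 3 with library size scaling and with DESeq2, 2 without both replicates numbered 4, 6 with limma voom (which called 11466 genes) and 1 to 2 when each replicate was left out. For surgery against control, 0 as reported, it was 2 with limma voom (4938 genes called), 2 with only the 2 groups compared and 2 with exactTest (5923 genes called). For pMT against surgery, 0 as reported, it was 5 with limma voom (6480 genes called). For pMT/VitD against surgery, 1 as reported, it was 0 with a replicate block (Srm 0.71, adjusted p = 0.0907), 2 without both replicates numbered 4, 4 with limma voom, 2 with exactTest and 0 to 2 when each replicate was left out, 0 without surgery replicate 1 or 2 and 2 without pMT replicate 4 (Srm and Smox) or VitD replicate 1 (Srm and Amd1). For VitD against control, 1 as reported, it was 2 with limma voom, 0 with only the 2 groups compared (Srm −0.71, adjusted p = 0.0797) and 0 to 1 when each replicate was left out. For pMT/VitD against pMT, 0 as reported, it was 3 without both replicates numbered 4 (Oaz1, Srm and Sms) and 4 with limma voom (6617 genes called). For pMT/VitD against VitD, 2 as reported, it was 4 with library size scaling (Odc1, Srm, Sat1 and Sms), where the calls of all genes split as 393 higher and 5365 lower against 1662 and 2104 with TMM, 3 with RLE factors, DESeq2, limma voom or without both replicates numbered 4 (Oaz1, Srm and Smox), 3 with the gene length trend removed (Amd1, Srm and Smox) and 1 to 4 when each replicate was left out, 1 without pMT/VitD replicate 2 or VitD replicate 1 and 4 without VitD replicate 3. For pMT against VitD, 0 as reported, it was 2 with library size scaling, 1 with the gene length trend removed, 2 without both replicates numbered 4, 1 with DESeq2, 5 with limma voom and 0 to 2 when each replicate was left out, 1 without pMT replicate 3 (Srm), and 2 without pMT replicate 4 (Odc1 and Smox) or VitD replicate 3 (Odc1 and Srm). For the interaction, 0 as reported, it was 3 with limma voom (5417 genes called). Limma voom called 6800 genes in pMT/VitD against surgery and 6447 in VitD against control. It called 8406 in pMT/VitD against VitD and 8540 in pMT against VitD. The exactTest called 1763 in pMT/VitD against surgery. DESeq2 called 3708 among the 5 groups, 4635 in pMT/VitD against VitD and 2213 in pMT against VitD. How many of all genes were called without both replicates numbered 4 is not given here. The cause of these moves was not tested. Of the differences printed, Paox in pMT/VitD against surgery turned to −0.087 and Oaz1 to −0.15 with library size scaling, and Sat1 in pMT/VitD against VitD, −0.13 in the fit to all libraries, was 0.062 without pMT/VitD replicate 4. With library size scaling the calls of all genes split as 98 higher and 3152 lower in pMT/VitD against surgery (413 and 866 with TMM), and as 2660 and 135 in VitD against control (942 and 550). The labels name nothing shared by libraries with the same replicate number, and deviations of such libraries correlated between −0.89 and 0.39. The −0.89 was between pMT replicate 4 and pMT/VitD replicate 4, which stood apart from their groups. These correlations therefore cannot settle whether samples were paired. The replicate block changed the count of members called in no comparison other than pMT/VitD against surgery. With 2 control and 2 surgery libraries, leaving out one assumes that the other varies like the remaining groups.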
